A study of Mus musculus with 2 samples.

Results

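The endoderm regulators described here were 10 genes: Gata4, Gata6, Sox7, Sox17, Pdgfra and Hnf4a, taken as primitive endoderm genes, and Foxa1, Foxa2, Hhex and Pdx1, taken as definitive endoderm genes. They were chosen by name, as 10 of the 22225 protein-coding genes annotated on mm9, and every POU5F1 peak whose centre lay within 50 kb of one of their transcript starts was collected from 3 peak lists on mm9 and 2 on mm10. POU5F1, also called OCT4, is a POU-domain transcription factor of pluripotent cells, and its binding was mapped by chromatin immunoprecipitation with a POU5F1 antibody followed by sequencing (ChIP-seq). All material came from E14TG2a.4, a line of embryonic stem cells from a male 129/Ola mouse embryo at 3.5 days, with no treatment or genotype difference named in the labels. There was 1 group with 2 biological replicates and no second group, so each result is a description set beside the same value over all genes or all peaks, with no test.

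Primitive endoderm is the extraembryonic layer that forms beside the pluripotent epiblast in the blastocyst and later makes yolk sac endoderm, and GATA and SOX factors together with PDGF receptor signalling are known for specifying it. Definitive endoderm arises from the epiblast at gastrulation and gives rise to gut, liver, pancreas and lung, where FOXA factors, HHEX and PDX1 act. Embryonic stem cells resemble the epiblast, and POU5F1 there binds an octamer, often as one side of a composite element shared with SOX2. The division into primitive and definitive genes is a simplification, because Gata4, Gata6, Sox17 and Hnf4a are used again in definitive endoderm and Foxa2 and Hhex are also active in visceral endoderm.

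The mm9 whole-series list numbered 5515 peaks, that of replicate 1 numbered 1330 and that of replicate 2 numbered 6324, and on mm10 the optimal and conservative lists, made from the replicates by irreproducible discovery rate (IDR) analysis, held 3994 and 2676. The read depth behind these lists is unknown, and the number of peaks is no measure of it. The signal of a peak is the authors' own value per peak with no stated scaling, so it was ranked only within a list, and the whole-series and IDR lists give 1 value per peak with no replicate error. As a check of the immunoprecipitation, the strongest whole-series peak of Pou5f1 itself, at −1.99 kb, had a signal of 27.9 and rank 4.

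The peaks of Hhex, Sox7 and Foxa1 and the second Pdx1 peak were the whole-series peaks of the set that held the octamer ATGCAAAT or the composite SOX-POU element within 100 bp of their centre, and their windows are printed to show where these letters lie. Each window is 201 bp of the mm9 reference (NCBIM37), plus strand, 5′ to 3′. The Hhex window is chr19:37543765-37543965, the Sox7 window chr14:64555294-64555494, the Foxa1 window chr12:58615384-58615584 and the Pdx1 window, which lies beside the start of Cdx2, chr5:148118866-148119066. Capitals mark the exact octamer in the Hhex and Sox7 windows, the octamer read on the minus strand in the Pdx1 window, and the composite element, read on the minus strand with 1 mismatch, in the Foxa1 window.
Hhex, 32.6 kb downstream: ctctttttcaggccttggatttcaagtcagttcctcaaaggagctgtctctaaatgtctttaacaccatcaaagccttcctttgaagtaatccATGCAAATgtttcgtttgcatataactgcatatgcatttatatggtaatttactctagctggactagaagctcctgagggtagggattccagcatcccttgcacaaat
Sox7, 7.12 kb upstream: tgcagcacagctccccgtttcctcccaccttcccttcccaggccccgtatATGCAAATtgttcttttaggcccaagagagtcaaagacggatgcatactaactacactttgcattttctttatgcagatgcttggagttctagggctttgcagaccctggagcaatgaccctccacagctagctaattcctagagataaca
Foxa1, 31.6 kb downstream: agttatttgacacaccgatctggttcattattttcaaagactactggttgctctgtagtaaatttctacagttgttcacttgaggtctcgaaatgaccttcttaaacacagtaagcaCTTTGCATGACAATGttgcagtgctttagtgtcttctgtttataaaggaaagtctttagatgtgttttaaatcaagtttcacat
Pdx1, 37.4 kb downstream: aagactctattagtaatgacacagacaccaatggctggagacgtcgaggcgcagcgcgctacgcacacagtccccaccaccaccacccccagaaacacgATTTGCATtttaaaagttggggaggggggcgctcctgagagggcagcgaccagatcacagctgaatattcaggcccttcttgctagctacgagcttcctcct

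Of the 10 endoderm regulators, 5 had a whole-series mm9 peak within 50 kb: Gata4, Sox7, Foxa1, Hhex and Pdx1. Over all protein-coding genes the share was 27.3%. With 10 genes the interval around 50% ran from 18.7% to 81.3% (95% Clopper-Pearson, counting error only), which includes that share. The 6 peaks of these 5 genes were mostly weak, with a median signal of 5.14 against 5.58 over all peaks of the list. Their percentile within the list (100 being the highest signal) ran from 16.9 at Sox7 to 96.0 at Hhex with a median of 40.3, and only the Hhex and Gata4 peaks stood above the middle of the list. None of the 6 lay at a member's promoter: the distances to the member's nearest start ran from 7.12 to 41.8 kb.

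The same 5 genes had a peak in the replicate 2 list, where 30.1% of all genes did. In the replicate 1 list only Hhex and Pdx1 did, beside 8.16% of all genes. On mm10, Sox7, Foxa1, Hhex and Pdx1 had a peak in the optimal list, beside 19.4% of 21535 genes, and Sox7, Hhex and Pdx1 in the conservative list, beside 13.7%. Gata6, Sox17, Pdgfra, Hnf4a and Foxa2 had no peak within 50 kb in any of the 5 lists. The members' share was above the share of all genes in each list, on counts of 2 to 5 genes. The 5 lists derive from the same 2 replicates and repeat largely the same genes, so they are not separate observations.

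**Figure D1:**
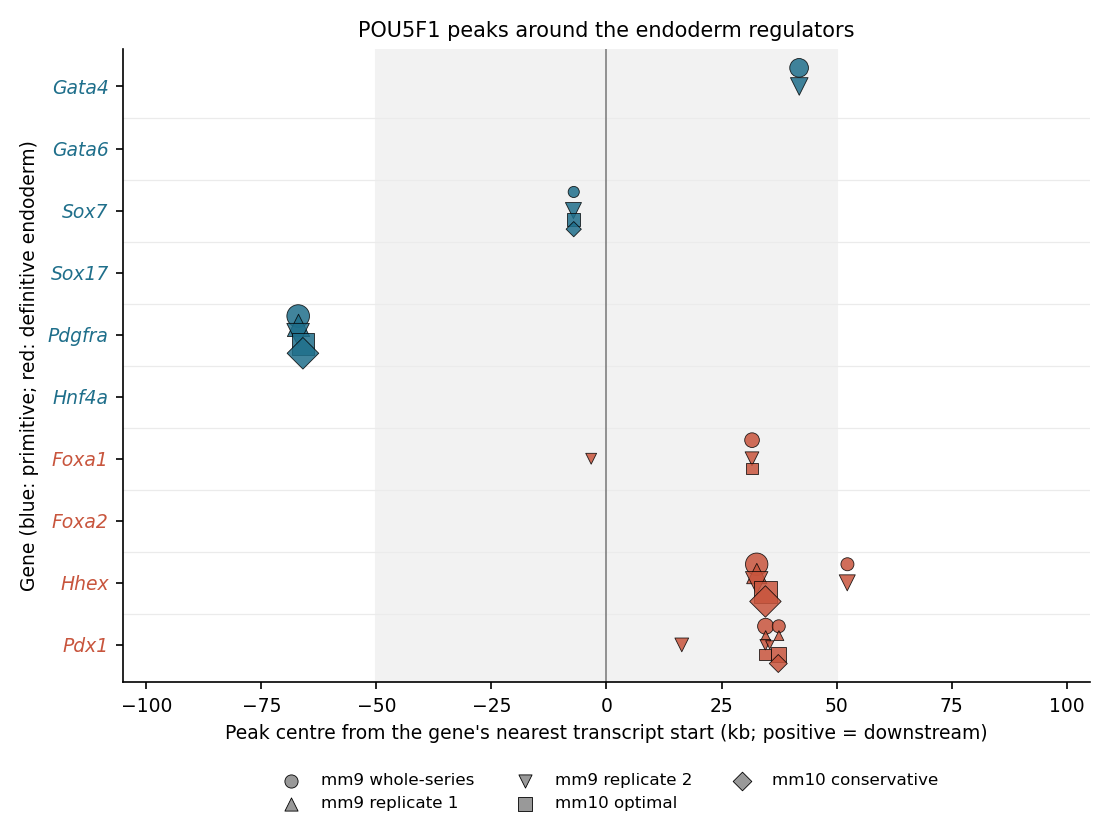
Peaks of the 5 authors' lists around the 10 endoderm regulators, plotted by the distance of the peak centre from the gene's nearest transcript start in kb (positive is downstream). Blue marks primitive and red definitive endoderm genes, the marker shape gives the list, the marker area grows with the signal percentile within that list, and the grey band spans 50 kb on each side; the largest markers are those of Hhex inside the band and Pdgfra outside it.

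Split by class, 2 of 6 primitive endoderm genes and 3 of 4 definitive endoderm genes were near a whole-series peak. As shares these were 33.3% (95% Clopper-Pearson interval 4.33% to 77.7%) and 75.0% (19.4% to 99.4%), intervals that overlap over most of their length. When a peak was given only to its nearest coding gene, Gata4 and Pdx1 dropped out. The counts were then 1 of 6 and 2 of 4, beside 13.5% of all genes. The optimal list gave 1 of 6 and 3 of 4, the conservative list 1 of 6 and 2 of 4, and the replicate 1 list 0 of 6 and 2 of 4. Over all genes the shares were 27.3% in the whole-series list, 19.4% in the optimal, 13.7% in the conservative and 8.16% in the replicate 1 list, so the primitive counts lay near the share of all genes. In none of the 5 lists was the primitive share the larger. These lists derive from the same 2 replicates, however, and 4 to 6 genes a class cannot separate the classes. With Sox17 and Hnf4a counted as definitive endoderm genes, the whole-series counts were 2 of 4 and 3 of 6, which are equal shares.

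Among the primitive endoderm genes, Gata4 and Gata6 encode zinc finger factors that can drive embryonic stem cells towards primitive endoderm. Gata4 (chr14:63817759-63890529 on mm9, minus strand) had 1 whole-series peak, chr14:63790465-63790730, with a signal of 6.17, rank 1872 and a −log10 p of 6.625. It overlapped a peak of replicate 2 with a signal of 9.07 and no peak of replicate 1. This peak lay inside Fdft1, the gene of squalene synthase, 6.03 kb from its nearest start, while the distance of 41.8 kb to Gata4 was counted from an internal one of its 6 annotated starts. It was not within 50 kb when only 1 start per gene was used. On mm10, where 1 Gata4 start was used, the nearest peak of the optimal and of the conservative list lay 189 kb upstream. The mm9 peak lay on the downstream side, where neither mm10 list had a peak within that distance. Gata6 was the member farthest from any whole-series peak, at 593 kb, and 90.6% of all genes had a peak as close.

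Sox7 and Sox17 encode related SOX factors of endoderm and endothelium, and they differed in their peaks. Sox7 (chr14:64562511-64569569, plus strand) had an intergenic peak 7.12 kb upstream, chr14:64555226-64555562, the closest whole-series peak of any member, and 6.94% of all genes had one as close. No other coding gene had a start within 50 kb of it. Its signal was low, 4.41 in the whole-series list (rank 4384), and among the replicates it overlapped only a peak of replicate 2, with a signal of 8.31 (rank 3163 of 6324). On mm10 the peak at the same distance of 7.12 kb upstream had a signal of 29.5 and rank 2925 in the optimal list and was also in the conservative list. Sox17 had its nearest whole-series peak at 345 kb, and 79.2% of all genes had one as close.

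Pdgfra encodes the PDGF receptor alpha, an early surface marker of primitive endoderm, and Hnf4a a nuclear receptor of visceral endoderm and liver. Pdgfra had no peak within the window, but a strong one lay just outside, 67.0 kb upstream at chr5:75481004-75481659. That peak had a whole-series signal of 14.39 (rank 92) and overlapped a peak of both replicates, with a signal of 12.44 (rank 66 of 1330) in replicate 1 and 22.67 (rank 119 of 6324) in replicate 2. Its nearest gene was Gsx2, a homeobox factor gene, at 9.7 kb. On mm10 a peak 66.0 kb upstream of Pdgfra had rank 117 of the optimal list. For Hnf4a the nearest whole-series peak was 439 kb away, and 84.8% of all genes had one as close.

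Among the definitive endoderm genes, Foxa1 and Foxa2 encode the forkhead pioneer factors of gut and liver. Foxa1 (chr12:58641618-58647108, minus strand) had an intergenic peak 31.6 kb downstream, chr12:58615332-58615636, with a signal of 4.99 and rank 3324. In replicate 2 it had a signal of 7.56, rank 3969, and no peak of replicate 1 overlapped it. A second peak, at −3.33 kb with a signal of 6.8, was in the replicate 2 list only. Foxa1 was nearest to both peaks. Foxa2 had no whole-series peak closer than 140 kb, a distance reached by 53.0% of all genes.

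Hhex encodes a homeobox factor of anterior endoderm, liver and thyroid, and had the strongest peak of the set. It lay 32.6 kb downstream of the nearer, internal one of 2 annotated starts of Hhex (chr19:37507377-37515218, plus strand). The peak was at chr19:37543615-37544116, in intergenic sequence with no other coding gene start within 50 kb. Its whole-series signal was 11.75, rank 214, with a −log10 p of 52.123. It was present in both replicates, with a signal of 8.71 (rank 264 of 1330) in replicate 1 and 20.41 (rank 186 of 6324) in replicate 2. On mm10 the Hhex peak, at 34.5 kb from the annotated start there, had a signal of 114 and rank 145 in both the optimal and the conservative list. A weaker whole-series peak lay just outside the window at 52.4 kb, with a signal of 4.7 and a replicate 2 peak only.

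Pdx1 encodes a homeobox factor of the pancreas and duodenum, and its whole-series peaks lay closer to its neighbour Cdx2, a homeobox factor gene of trophectoderm and intestine. The first, chr5:148115916-148116298, lay 34.6 kb downstream of the Pdx1 start (chr5:148081535-148089584, plus strand) and inside Cdx2, 2.74 kb from its start. Its signal was 5.29 (rank 2870), with 5.6 (rank 1132 of 1330) in replicate 1 and 6.8 (rank 4994 of 6324) in replicate 2. The second, chr5:148118787-148119145, lay 37.4 kb from Pdx1 and at −120 bp from Cdx2, with a signal of 4.7, and among the mm9 replicate lists it overlapped only a replicate 1 peak of signal 5.6. The one peak nearest to Pdx1 itself, 16.4 kb downstream with a signal of 7.56, was in the replicate 2 list only. A further replicate 2 peak at 35.5 kb also lay inside Cdx2.

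**Figure D2:**
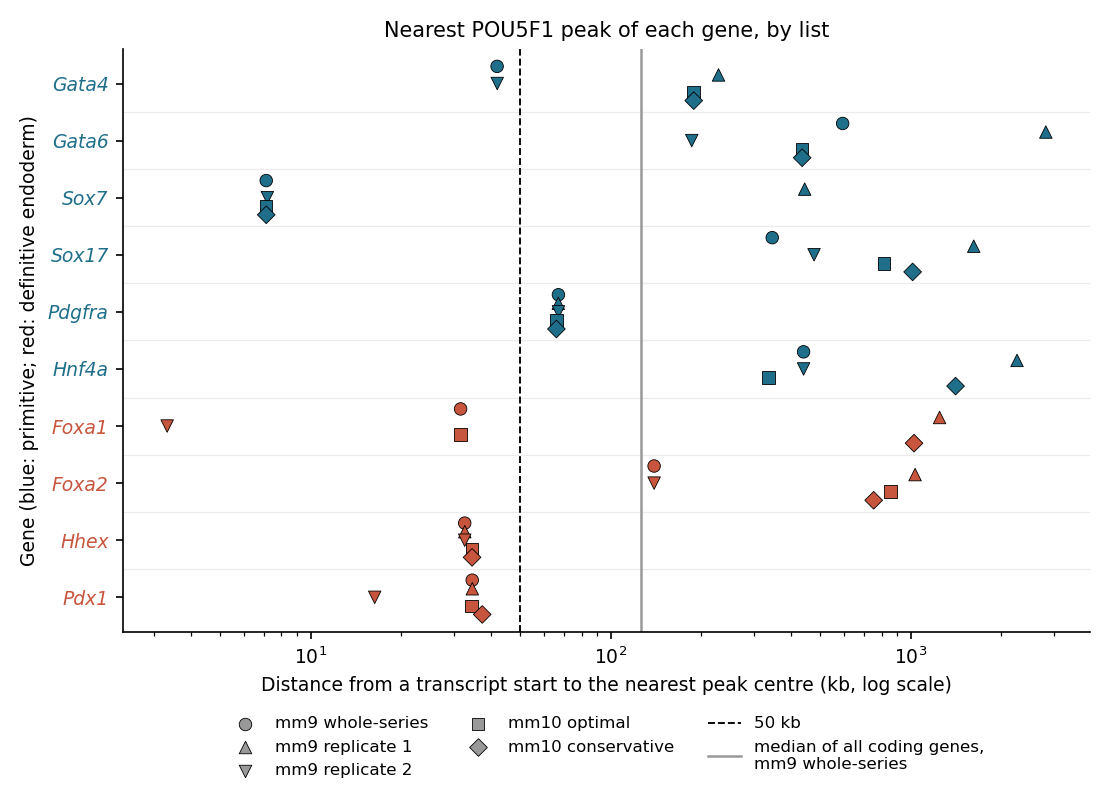
Distance in kb (log scale) from a transcript start of each endoderm regulator to the nearest peak centre in each of the 5 lists; blue marks primitive and red definitive endoderm genes, the dashed line is 50 kb and the grey line the median of all coding genes in the mm9 whole-series list, 126 kb. In that list the median of the 10 regulators was 54.4 kb, with 6 genes left of the grey line and 4 (Foxa2, Sox17, Hnf4a and Gata6) right of it.

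Of the 6 member peaks, 2 (Hhex and the first Pdx1 peak) overlapped a peak of both replicate lists, 3 of replicate 2 alone and 1 of replicate 1 alone. Over all 5515 whole-series peaks, 21.9% overlapped both, 64.8% replicate 2 alone, 0.798% replicate 1 alone and 12.5% neither. The single-replicate support of the Gata4, Sox7 and Foxa1 peaks was thus the most common state in the list. The replicate 1 list is much the shorter, and the part of its length in this support was not tested.

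The mm10 relaxed lists, which hold peaks and background for each replicate, 300000 entries each, allowed the 5 optimal peaks of the regulators to be ranked in both replicates. The Hhex peak had rank 215 in replicate 1 and rank 134 in replicate 2. The Pdx1 peak at 37.3 kb had ranks 1131 and 2865 in replicates 1 and 2, and the one at 34.4 kb ranks 1861 and 6502. The Pdx1 peaks thus stood higher in replicate 1.

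The other 2 stood far lower in replicate 1: the Sox7 peak had rank 12480 there and 2824 in replicate 2, and the Foxa1 peak 98985 and 4297. Over all optimal peaks found in each relaxed list, the median rank was 3146 in replicate 1 and 2006 in replicate 2. The Hhex peak and the Pdx1 peak at 37.3 kb were among the 3994 highest-signal entries of both replicates, 2 of 5, beside 43.1% of all optimal peaks. The relaxed list of replicate 1 was derived from another number of input files than that of replicate 2, and the part of this in the rank differences was not tested.

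**Figure D3:**
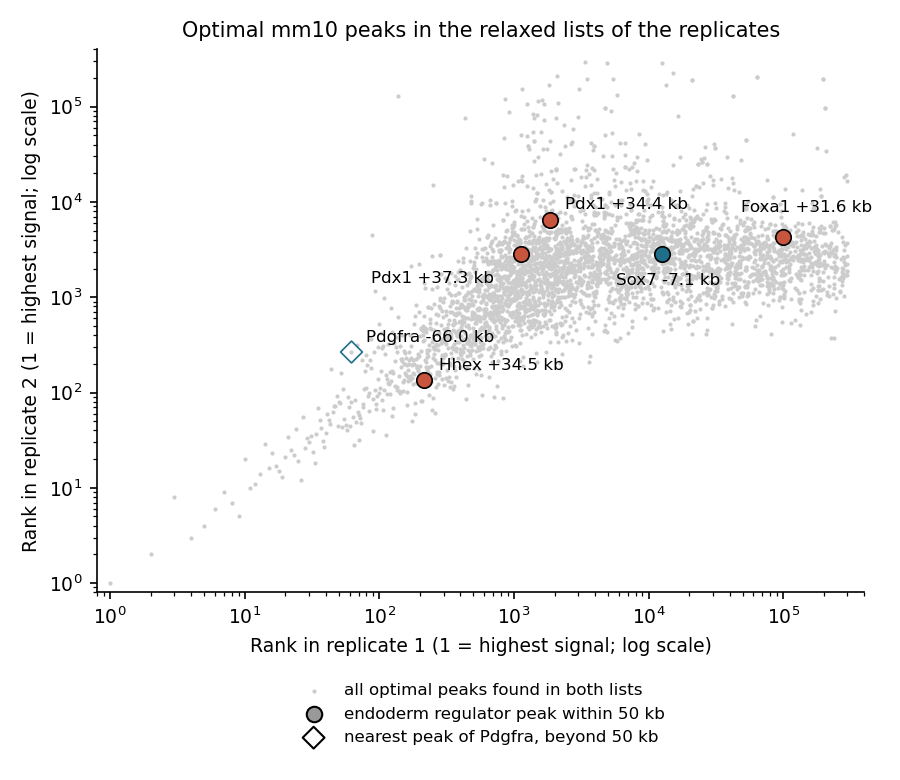
Ranks of the optimal mm10 peaks in the relaxed lists of replicate 1 (horizontal) and replicate 2 (vertical), both on log scales with 1 the highest signal; grey points are all optimal peaks found in both, filled circles the 5 peaks of endoderm regulators (blue primitive, red definitive) and the open diamond the Pdgfra peak beyond 50 kb. The Hhex peak has ranks 215 and 134 and the Pdgfra peak ranks 62 and 266, while the Sox7 and Foxa1 peaks lie far to the right, at 12480 and 98985 in replicate 1.

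The relaxed lists also show what lay near the regulators with no called peak. Taking the highest-ranked entry within 50 kb, Hhex had rank 215 in replicate 1, reached by 1.3% of all genes, and rank 134 in replicate 2, reached by 0.887%. Pdx1 was second in replicate 1, with rank 1131, reached by 6.32% of genes. In replicate 2 Sox7, with rank 2824 (14.1% of genes), and Pdx1, with rank 2865 (14.3%), stood next to each other behind Hhex. For the other 7 genes and for Sox7 in replicate 1, the best rank was reached by 20.5% to 65.6% of genes.

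The best entry for Gata6 had rank 8313 in replicate 1 and 7821 in replicate 2, the first at −1.45 kb and the second at 165 bp from the start, without overlap. Sox17 (15424 and 13290) and Gata4 (21590 and 16118) ranked behind the median over all genes in both replicates, which was 13224 in replicate 1 and 13251 in replicate 2. Pdgfra had 11856 and 7862, with the strong peak beyond 50 kb left out by the window. Foxa2 and Hnf4a stood higher in replicate 1, with 5320 and 15767 for Foxa2 and 7007 and 22654 for Hnf4a. The best entries of the replicates overlapped at Hhex and Pdx1 and at no other member.

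**Figure D4:**
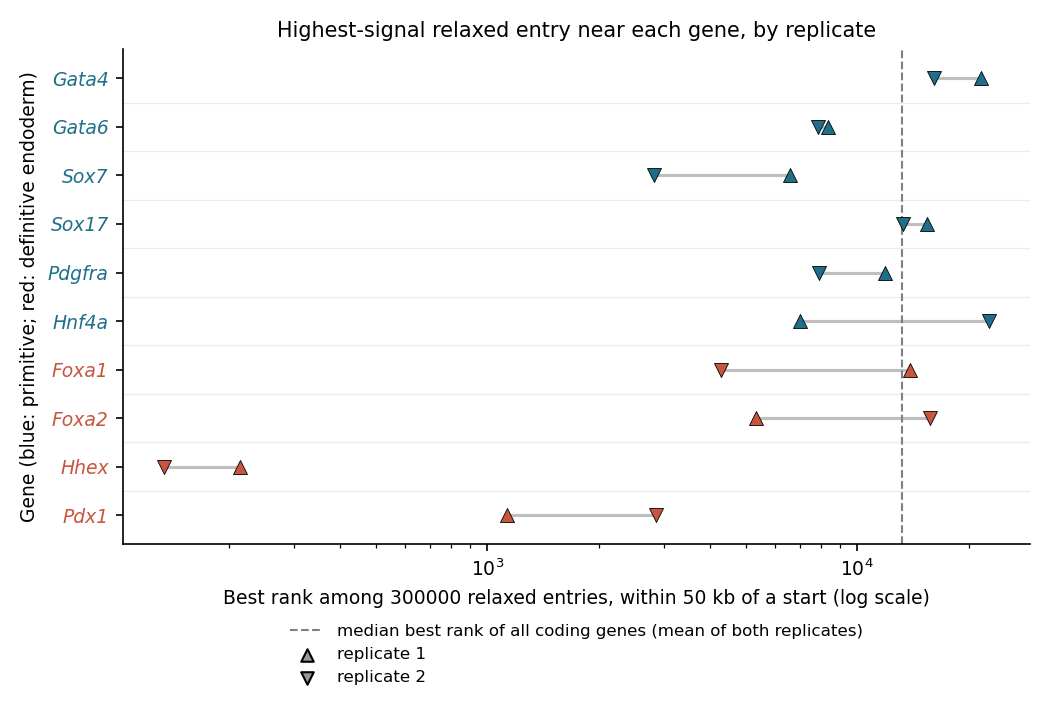
Rank (log scale, 1 the highest signal) of the highest-signal relaxed mm10 entry within 50 kb of each endoderm regulator, with upward triangles for replicate 1, downward triangles for replicate 2 and a line joining them; the dashed line is the median over all coding genes. Hhex stands apart on the left at 215 and 134, and Gata4 lies right of the median in both replicates.

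The octamer or the composite element (up to 2 mismatches, both strands) was in 4 of the 6 member windows, beside 19.4% of all whole-series windows. The exact octamer was in 3, at Hhex, Sox7 and the second Pdx1 peak, beside 13.4% of all. In the Hhex window it lay 3.5 bp from the peak centre (chr19:37543858-37543865), in the Pdx1 window 2.5 bp (chr5:148118965-148118972, minus strand) and in the Sox7 window 46.5 bp (chr14:64555344-64555351). The composite element was in the Foxa1 window alone, 24 bp from the centre with 1 mismatch, beside 9.3% of all windows with up to 2 mismatches and 1.89% with up to 1. The windows of Gata4 and of the first Pdx1 peak held none of the motifs searched.

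Around their exact octamer, the Hhex and Sox7 windows each held 2 further octamer-like sites with 1 mismatch. At Hhex these were ATGCAAAC and ATGCATAT, both on the minus strand, and at Sox7 they were ATGCAAAG on the minus strand and ATGCAGAT on the plus strand. A window with 3 or more such sites was found for 4.1% of all peaks. The SOX motif CATTGT was in 1 of 6 member windows, at Foxa1, where it is part of the composite element, beside 19.1% of all. The GATA motif AGATAA was in 1, at Sox7, beside 9.1%. An exact pair of ATGCAT in a row, the palindromic form bound by POU dimers, was in 0 of 6, beside 0.308%. No mismatch was allowed in that search. The Hhex window held a stretch 1 mismatch from this pair, and such near matches were not counted over all windows. A match of letters is a description and not a measured binding site.

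The windows differed widely in base composition. GC content was 34.8% at Foxa1, 40.3% at Hhex, 44.3% at Gata4, 48.3% at Sox7, and 60.7% and 55.2% at the first and second Pdx1 peaks. Foxa1 was thus among the 1.89% lowest of the list, and the Pdx1 peaks, at and in Cdx2, were at percentiles 97.8 and 93.3, with 14 and 10 CpG dinucleotides beside a median of 2. The median of the 6 windows and of all windows was 46.3%.

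A list of 33 further genes held yolk sac products (Afp), basement membrane genes (Lama1) and regulators of gastrulation (Gsc and Eomes), among others. It also held GATA and SOX family relatives of the members, and not all 33 are endoderm genes. Their shares were below those of all genes on mm9 and above them on mm10. Of the 33, 8 (24.2%) were near a whole-series peak, 2 (6.06%) near one of replicate 1 and 9 (27.3%) of replicate 2. On mm10, 7 (21.2%) were near a peak of the optimal and 6 (18.2%) of the conservative list. Of those near a whole-series peak, the 6 with the highest signal were Gata2, Onecut1, Nkx2-1, Snai1, Lrp2 and Gsc. Gata2, a GATA factor gene of blood and trophoblast, had the strongest peak, with a signal of 9.4, 37.4 kb from its start but nearest to Dnajb8. The others had signals of 4.99 to 5.87, below or near the median of all peaks. None of the 6 reached the signal of the Hhex peak.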

How the data were processed

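POU5F1 ChIP-seq peak lists from 2 biological replicates, from separate biosamples of E14TG2a.4, were used as the authors deposited them. The control that the labels name was not analysed here. Per the file headers, relaxed lists on mm10 hold peaks and background, and IDR gave the optimal and conservative lists. The aligner, peak caller, IDR threshold and the way replicates were combined in the mm9 whole-series list are not given in the sources used here. Signal is the deposited value per peak, scaling not stated. For each mm9 peak the authors deposited a −log10 p-value, at least 5.008 in the whole-series list, and a q-value, which was not used, and the deposited mm10 lists a −log10 q, which was not used. The deposited IDR score reaches 1000.

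Peak centres were set against every protein-coding transcript start of GENCODE M1 on mm9. On mm10 the 5′ end of each RefSeq GRCm38 gene was used, with any further starts of the RefSeq promoter table. That table holds 6 of the 10 genes, and Gata4, Gata6, Sox7 and Sox17, which it lacks, had 1 start each. The GRCm38 gene table has no strand, so strand came from the promoter table or from GENCODE M1. The 348 genes without one were left out. Coordinates were never converted, so mm10 peaks need not be the mm9 sites. Peaks ending beyond their mm9 chromosome numbered 0. Lists were compared by overlap of at least 1 bp. Motifs were searched on both strands in 201 bp windows of the mm9 genome. No design allowed a test between groups. Ranks put the highest signal first, and intervals are 95% Clopper-Pearson.

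Named were all 10 members, up to 6 genes of the further list with the highest signal near them, the coding gene nearest to each member peak, and Pou5f1. Gsx2, Dnajb8 and the genes given as examples of the further list were named after their values were seen. The members and lists were chosen with earlier results of these data known. The alternatives tried were the window, the gene assignment, the p-value threshold, the starts used, each replicate alone, the overlap rule, the motif rule and the class of Sox17 and Hnf4a. Python 3.11.15 with numpy 2.4.6, pandas 2.3.3, pysam 0.24.0 and samtools 1.23.1 was used, and the code was checked on simulated data.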

Additional observations from a re-analysis of the deposited data

How the results depend on the processing

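The count of 5 of 10 regulators near a whole-series mm9 peak became 1 within 10 kb, 3 when a peak was given only to its nearest coding gene and 2 at a −log10 p of at least 10, where the shares of all genes were 8.66%, 13.5% and 16.6%. With each replicate's own list in place of the whole-series list it ran from 2 to 5, the low value being that of replicate 1 alone. The 2 primitive endoderm genes became 1 within 10 kb, with the nearest gene only or with 1 start per gene, and 0 at the stricter threshold, and ran from 0 to 2 over the replicates; the 3 definitive endoderm genes became 0 within 10 kb and ran from 2 to 3. The 6 member peaks became 1 within 10 kb and 3 at the stricter threshold, and 3 to 8 in the replicate lists. Their median percentile of 40.3 became 16.9 within 10 kb, where only the 1 Sox7 peak was left. Within the replicates' own lists it was 11.2 over 3 peaks in replicate 1 and 30.8 over 8 in replicate 2. On mm10, 10 kb left 1 of the 4 genes of the optimal list and 1 of the 3 of the conservative list, beside 5.93% and 3.98% of all genes. Of the 4, 2 had a peak among the top entries of both relaxed lists. The share of all genes there was not computed, and among all optimal peaks it was 43.1%. The 8 genes of the further list became 3 within 10 kb and 15 within 100 kb, beside 43.3% of all genes at 100 kb. They ran from 2 to 9 over the replicates. The other 34 values stayed within 1.5 times the reported count or within the spread between replicates. Among them were the 2 peaks shared by both replicates and the count of motif windows. The share of all windows did move with the motif rule, between 14.0% and 54.8%. It was 35.7% with 3 composite mismatches (4 of 6 member windows) and 54.8% with 1 octamer mismatch (5 of 6). With Sox17 and Hnf4a counted as definitive, the class counts stayed at 2 and 3, but of 4 and 6 genes, which are equal shares. Fewer peaks or genes enter most of these alternatives by construction, and no further cause was tested. Depth is unknown, so a missing peak does not show that binding was absent.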
